A study of Mus musculus with 9 samples.

Results

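The genes described here code for collagens, laminins and other structural proteins of the extracellular matrix in cultured B16 cells, a melanoma line from mouse. They were chosen by name: all protein-coding rows of the count table whose symbol is that of a collagen or laminin chain, a nidogen, fibulin, fibrillin, thrombospondin, matrilin, emilin, lysyl oxidase or one of a fixed set of other matrix proteins. This gave 86 of the 21676 genes in the table. RNA was sequenced from cells with the hairpin shAD4-1 (3 libraries), cells with the hairpin shAD4-2 (3 libraries) and cells with a control hairpin, which the labels write as shCotrol (3 libraries). The adhesion receptor ADGRL4 is named in the series title, and the design text calls both shAD4 groups knockdown derivatives with biological replicates. All 9 libraries therefore come from hairpin-bearing cells, and none from cells without a hairpin. The sources used here do not say whether each hairpin line is a clone or a pool. The p-values measure the spread between libraries of a line. The targeted gene itself was not analysed here, so no value of it checks the labels.

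The matrix that cells secrete has several layers. Laminins, which are trimers of an alpha, a beta and a gamma chain, and type IV collagen each form a network in the basement membrane, and nidogens and the heparan sulphate proteoglycans agrin and perlecan join these networks. Fibrillar collagens give tissue its tensile strength, fibril-associated collagens coat those fibrils, fibulins and emilins belong to elastic fibres, and fibronectin, SPARC and thrombospondins link matrix to cells or modulate that link. Lysyl oxidases cross-link collagen and elastin.

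The libraries held 31.3 to 36.9 M reads in genes. The melanocytic markers Mlana, Pmel, Dct, Tyr, Tyrp1, Sox10 and Mitf, 7 of 7 listed, were each above 1 CPM (counts scaled to library size with TMM factors) on average in every group. Their summed level was 9734 to 9964 CPM with shAD4-1, 10587 to 11563 CPM with shAD4-2 and 11352 to 13086 CPM in control. The control replicate 1 library stood apart from the other control libraries. The chi-square per degree of freedom between libraries was 2.93 to 17.1 within groups, the highest being a pair with this library, and 18.3 to 176 between groups. Reads of the 13 mitochondrially encoded genes made up 3.74% ± 0.10 of the shAD4-1 libraries, 3.72% ± 0.15 of the shAD4-2 libraries and 2.45% ± 0.16 of the control libraries (SD, n = 3 each). Leaving these genes out gave the same counts of matrix genes called, 27 higher and 14 lower with shAD4-1 and 25 higher and 16 lower with shAD4-2.

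Matrix genes took a small and similar share of the RNA in the 3 groups. They made up 0.330% ± 0.0054 of reads with shAD4-1, 0.312% ± 0.0042 with shAD4-2 and 0.313% ± 0.017 in control (SD, n = 3 each). Summed per length, as FPKM (fragments per kilobase of gene length, scaled to library size), their level was 601 ± 7.4 with shAD4-1, 596 ± 7.8 with shAD4-2 and 566 ± 19 in control. A single gene, Sparc, gave 37.0%, 40.8% and 36.5% of that sum. Without Sparc the sums were 379 ± 5.8, 353 ± 4.2 and 360 ± 18 FPKM. The levels spread widely: 32, 35 and 32 of the 86 genes had a mean of at least 1 FPKM, 14, 13 and 15 had at least 10 FPKM, and 11, 5 and 18 had no read, each for shAD4-1, shAD4-2 and control.

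Of the 86 genes, 50 passed the filter on low counts and were tested, and 36 did not. Each comparison was tested by quasi-likelihood in edgeR, p was adjusted by the Benjamini-Hochberg method over all 13807 tested genes, and a gene is called where its adjusted p is below 0.05. Among the 33 genes with a mean of at least 1 FPKM over all libraries, shAD4-1 against control had 14 genes higher and 14 lower, with a median log2 fold change of −0.14. For shAD4-2 against control, 12 were higher and 16 lower, with a median of −0.17. Over all tested genes 65% were called for shAD4-1 (32.7% higher, 32.3% lower) and 69% for shAD4-2 (34.2% higher, 34.8% lower), with a median log2 fold change of −0.01 for each hairpin. The share of the 33 genes called, 84.8% with either hairpin, therefore stands beside a background of 65% and 69%, not matched for expression level. The counts given below for each family of matrix genes against control are to be read against the same background. Over all 50 tested members the counts were 27 higher and 14 lower with shAD4-1 and 25 higher and 16 lower with shAD4-2. Among these, 17 lie below a mean of 1 FPKM, and some, such as Loxl1, could pass the filter only through the hairpin groups. The direction of the 17 as a set, and so of the counts over all 50, is not read as a result. Single genes among the 17, such as Col2a1, Col9a1 and Matn3, are described below with their values. Without the control replicate 1 library, the counts over all members were 28 higher and 14 lower with shAD4-1 and 27 higher and 17 lower with shAD4-2.

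**Figure D1:**
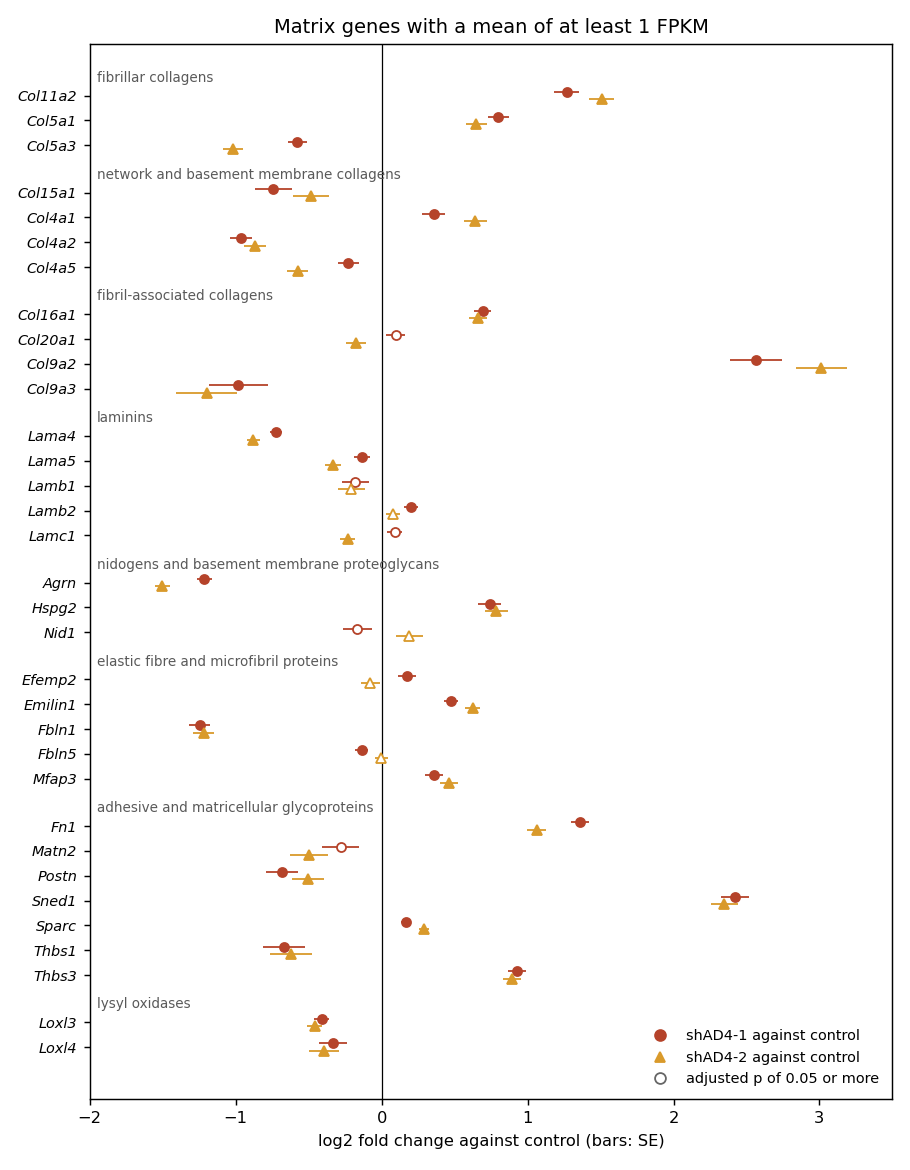
Log2 fold change against control (x axis, bars are SE) of the 33 matrix genes with a mean of at least 1 FPKM, for shAD4-1 (circles) and shAD4-2 (triangles), grouped by role. Open symbols have an adjusted p of 0.05 or more. The changes run both ways within every group except the lysyl oxidases, from −1.50 for Agrn to 3.01 for Col9a2, both with shAD4-2.

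The hairpin lines share the control libraries, so the fold changes of both against control are given side by side and are not independent of each other. In bulk RNA, fewer cells that express a gene and less RNA of it per cell cannot be told apart. Markers of fibroblasts and mural cells, which make much of the collagen of tissues, were measured for 6 of 9 listed genes, and 4 were above 1 CPM. Their summed level was 108.5 to 108.9 CPM with shAD4-1, 112 to 120 CPM with shAD4-2 and 72.6 to 77.2 CPM in control. In shAD4-1, shAD4-2 and control, Pdgfrb was at 52.1, 44.9 and 44.9 CPM, Pdpn at 50.5, 66.2 and 24.2 CPM, Pdgfra at 3.82, 3.37 and 3.37 CPM and Cspg4 at 2.16, 2.39 and 1.70 CPM. Fap (0.137, 0.0304 and 0.0795 CPM) and Rgs5 (0, 0.0183 and 0 CPM) were near 0. The part of such cells in the results was not tested. Macrophage markers were measured for 3 of 7 genes, with sums of 6.97 to 7.73, 7.58 to 8.37 and 3.24 to 3.79 CPM, carried by Cd68 and Lyz2, while Ptprc was at 0.00931, 0 and 0 CPM. Endothelial markers (3 of 7 measured) summed to at most 0.289 CPM in any library, and keratinocyte markers (2 of 6 measured) to at most 0.11 CPM.

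Both chains of the major type IV collagen moved, in opposite directions. Col4a1 had 2.69, 2.56 and 2.68 FPKM with shAD4-1 and 3.22, 3.39 and 3.08 FPKM with shAD4-2, against 1.96, 2.19 and 2.29 FPKM in control. Its partner Col4a2 had 3.48, 3.39 and 3.64 FPKM with shAD4-1 and 3.74, 3.56 and 3.95 FPKM with shAD4-2, against 6.26, 7.26 and 7.82 FPKM in control. For either gene the control libraries did not overlap with those of a hairpin. Col4a1 rose by a log2 fold change of 0.36 ± 0.08 with shAD4-1 (adjusted p = 0.000604) and 0.64 ± 0.08 with shAD4-2 (adjusted p = 7.37e-07, SE after each value). Col4a2 changed by −0.96 ± 0.08 (adjusted p = 2.47e-09) and −0.87 ± 0.08 (adjusted p = 8.83e-09) on the log2 scale. The ratio of Col4a1 to Col4a2 FPKM was 0.738 to 0.774 with shAD4-1, 0.780 to 0.951 with shAD4-2 and 0.293 to 0.314 in control. The ratios here and below were chosen with the values known and are a description without a test.

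These genes lie head to head on chromosome 8, and are known to be transcribed from a common promoter region. In RefSeq on GRCm38.p6, another build than the authors' GRCm39, the starts of Col4a1 (minus strand) and Col4a2 (plus strand) are 21 bases apart. Their promoter windows, 250 bases before to 50 bases after each start, are shown because they share sequence: chr8:11312777-11313076 for Col4a1 and chr8:11312555-11312854 for Col4a2, each read 5′ to 3′ on its gene's strand. Capitals mark the 78 bases that both windows hold, as reverse complements of each other.
Col4a1: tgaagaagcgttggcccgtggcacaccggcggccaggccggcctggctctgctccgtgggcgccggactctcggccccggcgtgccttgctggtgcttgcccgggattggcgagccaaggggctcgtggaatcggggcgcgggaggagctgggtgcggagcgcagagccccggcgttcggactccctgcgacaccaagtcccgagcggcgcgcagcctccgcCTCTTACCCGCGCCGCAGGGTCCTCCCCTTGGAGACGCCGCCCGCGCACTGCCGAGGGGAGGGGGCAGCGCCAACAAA
Col4a2: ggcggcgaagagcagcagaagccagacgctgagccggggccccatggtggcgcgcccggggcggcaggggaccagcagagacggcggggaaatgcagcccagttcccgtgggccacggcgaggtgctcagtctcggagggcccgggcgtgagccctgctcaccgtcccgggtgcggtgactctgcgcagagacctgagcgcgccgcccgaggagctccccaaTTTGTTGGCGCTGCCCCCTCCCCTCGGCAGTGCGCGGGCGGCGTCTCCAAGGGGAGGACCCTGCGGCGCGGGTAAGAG
The GC content is 74% and 73.7%. The letters TATAAA are in neither window, and CCAAT is in each once, on either strand.

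The other collagens of basement membranes were a mixed group. Of the 4 network and basement membrane collagens with a mean of at least 1 FPKM, 1 rose and 3 fell with each hairpin. Col4a5, a chain of another type IV network, had 6.34, 6.20 and 7.12 FPKM with shAD4-1 and 5.12, 4.99 and 5.38 FPKM with shAD4-2, against 7.29, 8.90 and 7.77 FPKM in control (log2 fold change −0.23 ± 0.07 and −0.57 ± 0.07). All its shAD4-2 libraries lay below all the others. The call for shAD4-1 (adjusted p = 0.00972) was lost without control replicate 2 (adjusted p = 0.111) or shAD4-1 replicate 2 (0.0586). Col15a1, whose product bridges basement membrane and underlying fibrils, fell by 0.74 ± 0.13 with shAD4-1 and by 0.48 ± 0.12 with shAD4-2 on the log2 scale. Col18a1, the source of endostatin, stayed below 0.24 FPKM in every library, at 0.154 to 0.235, 0.167 to 0.199 and 0.0200 to 0.0418 FPKM in shAD4-1, shAD4-2 and control (log2 fold change 2.55 ± 0.36 and 2.51 ± 0.36). With 9, 5 and 11 reads in the control libraries, Col18a1 could pass the filter only through the hairpin groups. Its direction is therefore not read as a result.

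Among laminins, 5 chains were expressed above 1 FPKM: Lama4, Lama5, Lamb1, Lamb2 and Lamc1. Lama4, the alpha chain of vessel and muscle basement membranes, had 12.3, 11.3 and 11.4 FPKM with shAD4-1 and 10.5, 10.7 and 10.2 FPKM with shAD4-2, against 20.6, 19.7 and 19.8 FPKM in control. It fell by 0.72 ± 0.04 with shAD4-1 (adjusted p = 7.47e-11) and by 0.88 ± 0.04 with shAD4-2 (adjusted p = 4.89e-12) on the log2 scale, with no overlap between the groups. Lama5, the most widespread alpha chain of adult epithelia, had 13.3, 12.6 and 11.8 FPKM with shAD4-1 and 10.5, 11.1 and 11.2 FPKM with shAD4-2, against 13.3, 14.4 and 15.4 FPKM in control. Here shAD4-1 and control overlapped. The log2 fold change of Lama5 was −0.33 ± 0.05 with shAD4-2 and −0.14 ± 0.05 with shAD4-1, where the call (adjusted p = 0.0337) was lost without control replicate 2 or 3, or without shAD4-1 replicate 2 or 3 (adjusted p between 0.0725 and 0.221), with the replicate block (0.0525) and with only the 2 groups compared (0.0533).

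The common gamma chain Lamc1, the laminin gene of highest level, had 38.7, 38.8 and 38.2 FPKM with shAD4-1 and 29.4, 31.9 and 31.5 FPKM with shAD4-2, against 34.3, 38.7 and 40.3 FPKM in control. With shAD4-1 the libraries lay inside the control range, with a log2 fold change of 0.09 ± 0.05 and an adjusted p of 0.131 (0.0168 without control replicate 3 and 0.0309 with no filter). The shAD4-2 libraries all lay below the control libraries, with −0.23 ± 0.05 and an adjusted p of 0.000511. Lamb2, a beta chain of muscle and kidney basement membranes, had 23.3, 22.8 and 22.0 FPKM with shAD4-1 and 20.7, 21.1 and 20.8 FPKM with shAD4-2, against 19.1, 20.6 and 21.9 FPKM in control. Its log2 fold change was 0.20 ± 0.05 with shAD4-1 (adjusted p = 0.001) and 0.08 ± 0.05 with shAD4-2 (adjusted p = 0.140, or 0.0136 without control replicate 3), where the libraries overlapped with control. Lamb1, the other main beta chain, was at 1.73 to 2.33 FPKM in all libraries and was not called with either hairpin (−0.18 ± 0.09 and −0.21 ± 0.09), with adjusted p of 0.0927 and 0.0526. For shAD4-2 it was called without shAD4-2 replicate 1 (0.0488), with upper-quartile scaling (0.0282), with at least 1 CPM in 3 libraries (0.0460) and with limma on FPKM under each setting run (0.0208 to 0.0468), and for shAD4-1 with limma and at least 1 FPKM in 3 libraries (0.0349).

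Summed over the chains of a kind, alpha chains had 24.2 ± 1.2 FPKM with shAD4-1, 21.5 ± 0.38 with shAD4-2 and 34.4 ± 0.71 in control (SD, n = 3 each). Beta chains had 24.6 ± 0.56, 22.7 ± 0.14 and 22.7 ± 1.5 FPKM, and gamma chains 38.8 ± 0.27, 31.0 ± 1.3 and 37.8 ± 3.1 FPKM, in the same order of groups. The alpha sums thus lay below control with both hairpins, while the beta and gamma sums lay within or near the control range except the gamma sum with shAD4-2. The ratio of Lama4 to Lama5 FPKM was 0.892 to 0.967 with shAD4-1, 0.908 to 0.999 with shAD4-2 and 1.28 to 1.55 in control, where Lama4 was the higher of the pair.

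**Figure D2:**
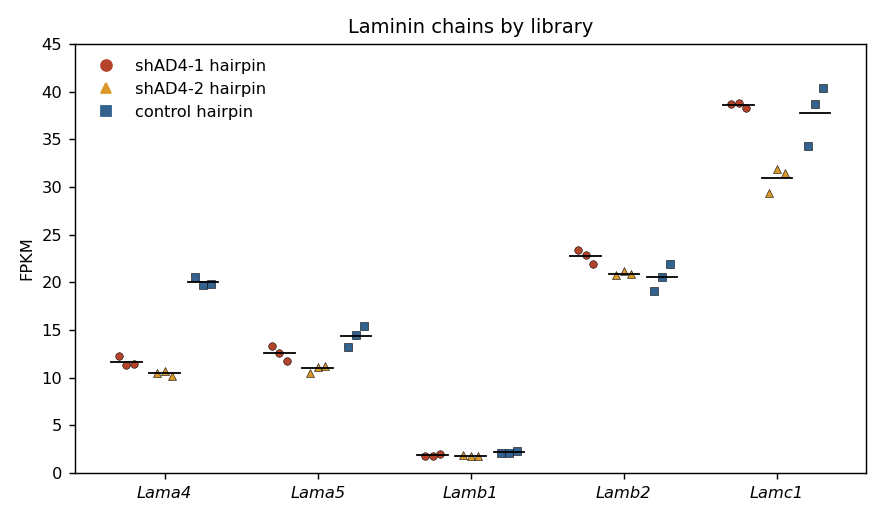
FPKM (y axis, from 0) of the 5 laminin chains above 1 FPKM in each library, with shAD4-1, shAD4-2 and control from left to right for each chain. Horizontal bars are group means of 3 libraries. Lama4 lies at 10.2 to 12.3 FPKM with both hairpins and at 19.7 to 20.6 FPKM in control.

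The heparan sulphate proteoglycans of the basement membrane, agrin and perlecan, moved in opposite directions. Agrn, whose product clusters acetylcholine receptors at the nerve-muscle synapse and binds laminin, had 17.7, 18.03 and 17.1 FPKM with shAD4-1 and 14.4, 15.2 and 13.7 FPKM with shAD4-2, against 38.8, 43.0 and 45.7 FPKM in control. In control it was the matrix gene of highest level after Sparc. It changed by −1.21 ± 0.05 with shAD4-1 (adjusted p = 6.76e-13) and −1.50 ± 0.05 with shAD4-2 (adjusted p = 3.11e-14) on the log2 scale, and all hairpin libraries lay below all control libraries. Hspg2, the gene of perlecan, had 19.3, 19.99 and 18.2 FPKM with shAD4-1 and 19.2, 19.9 and 20.4 FPKM with shAD4-2, against 9.63, 12.9 and 13.3 FPKM in control. It rose by 0.74 ± 0.08 and 0.79 ± 0.08 on the log2 scale, again without overlap. The ratio of Agrn to Hspg2 FPKM was 0.902 to 0.937 with shAD4-1, 0.672 to 0.764 with shAD4-2 and 3.34 to 4.03 in control. Nid1, the nidogen that links laminin and type IV collagen, was called with neither hairpin (−0.17 ± 0.10, adjusted p = 0.142, and 0.19 ± 0.10, adjusted p = 0.0840). Without control replicate 1, Nid1 was called with shAD4-2, at 0.29 and an adjusted p of 0.00828.

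**Figure D3:**
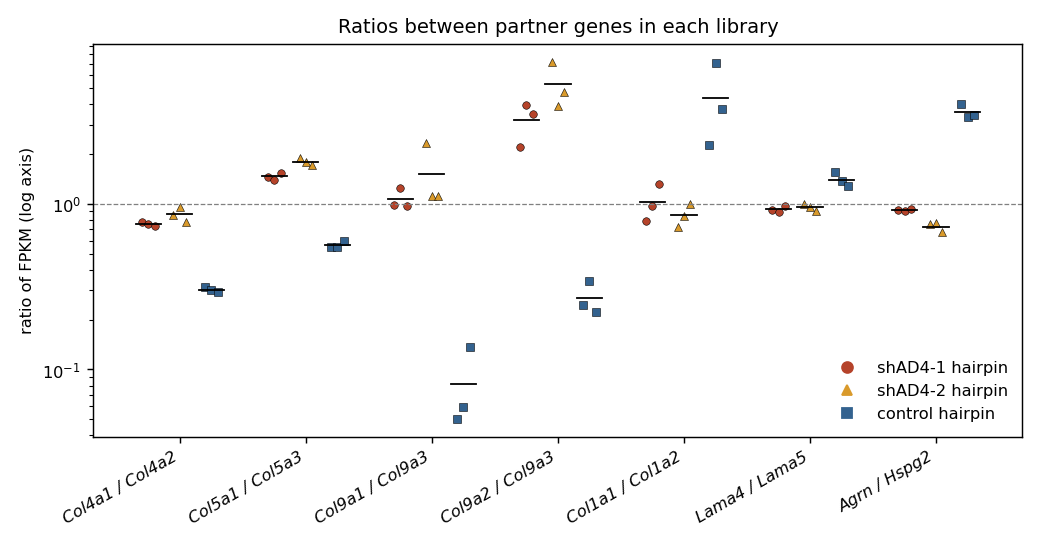
Ratio of the FPKM of partner genes (y axis, log scale) in each of the 9 libraries, with shAD4-1, shAD4-2 and control from left to right for each pair. Horizontal bars are means of 3 libraries and the dashed line is a ratio of 1. For Col4a1 to Col4a2, Col5a1 to Col5a3 and both Col9 pairs all hairpin libraries lie above all control libraries, and for Col1a1 to Col1a2, Lama4 to Lama5 and Agrn to Hspg2 all lie below.

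Fibrillar collagens were low in these cells. Of the 11 listed, Col5a1, Col5a3 and Col11a2 had a mean of at least 1 FPKM, and of these 3, 2 rose and 1 fell with each hairpin. Col11a2, a chain of the cartilage-type fibril nucleator type XI collagen, had 2.79, 2.92 and 3.01 FPKM with shAD4-1 and 3.16, 3.52 and 3.65 FPKM with shAD4-2, against 1.11, 1.35 and 1.31 FPKM in control. It rose by 1.27 ± 0.09 with shAD4-1 (adjusted p = 3.30e-10) and 1.51 ± 0.09 with shAD4-2 (adjusted p = 2.26e-11) on the log2 scale, and no hairpin library reached down to the control range. Col2a1, the main collagen of cartilage, had 0.803, 0.791 and 0.904 FPKM with shAD4-1 and 1.21, 1.38 and 1.42 FPKM with shAD4-2, against 0.577, 0.564 and 0.618 FPKM in control. The 3 groups did not overlap, and its log2 fold change was 0.56 ± 0.13 (adjusted p = 0.00119) and 1.24 ± 0.13 (adjusted p = 1.12e-07).

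The type V collagen genes, which start and limit the width of fibrils, split. Col5a1 had 8.41, 8.10 and 8.82 FPKM with shAD4-1 and 7.45, 7.68 and 7.76 FPKM with shAD4-2, against 4.37, 5.06 and 5.70 FPKM in control. It rose by 0.80 ± 0.07 and 0.65 ± 0.07 on the log2 scale. Col5a3 had 5.76, 5.78 and 5.71 FPKM with shAD4-1 and 3.96, 4.31 and 4.49 FPKM with shAD4-2, against 8.02, 9.23 and 9.52 FPKM in control. It changed by −0.58 ± 0.07 with shAD4-1 (adjusted p = 4.81e-07) and −1.02 ± 0.07 with shAD4-2 (adjusted p = 2.74e-10), so that every hairpin library lay below control, and shAD4-2 below shAD4-1. The ratio of Col5a1 to Col5a3 FPKM was 1.40 to 1.54 with shAD4-1, 1.73 to 1.88 with shAD4-2 and 0.546 to 0.599 in control. The third chain of this type, Col5a2, had 1 read in all libraries together.

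Type I collagen, the bulk collagen of skin and bone, was below 1.2 FPKM for both chains in every library. Col1a1 was at 0.607 to 0.764 FPKM with shAD4-1, 0.748 to 0.805 FPKM with shAD4-2 and 0.369 to 0.512 FPKM in control, with log2 fold changes of 0.70 ± 0.17 and 0.92 ± 0.17. Col1a2 was at 0.582 to 0.824 FPKM with shAD4-1, 0.811 to 1.11 FPKM with shAD4-2 and 0.0721 to 0.164 FPKM in control, with log2 fold changes of 2.62 ± 0.26 and 3.08 ± 0.26. The ratio of Col1a1 to Col1a2 FPKM, whose usual protein has more of the Col1a1 product, was 0.791 to 1.31 with shAD4-1, 0.722 to 0.993 with shAD4-2 and 2.25 to 7.11 in control. The control ratios rest on few reads, as Col1a2 had 27, 13 and 21 reads in the control libraries. Col3a1, usually made together with type I collagen in connective tissue, had 3 reads with shAD4-1, 1 with shAD4-2 and 9 in control, and the type VI chains Col6a1, Col6a2 and Col6a3 had 40, 1 and 7 reads over all libraries.

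Type IX collagen, a fibril-associated collagen of cartilage built from the chains of Col9a1, Col9a2 and Col9a3, changed in both directions. Col9a2 had 2.19, 3.12 and 2.72 FPKM with shAD4-1 and 3.39, 3.52 and 4.07 FPKM with shAD4-2, against 0.474, 0.548 and 0.391 FPKM in control. Col9a1 had 0.982, 0.987 and 0.754 FPKM with shAD4-1 and 1.10, 1.00 and 0.960 FPKM with shAD4-2, against 0.0973, 0.0955 and 0.240 FPKM in control. All hairpin libraries were above all control libraries for both genes. Col9a2 rose by 2.56 ± 0.18 with shAD4-1 (adjusted p = 3.87e-10) and 3.01 ± 0.17 with shAD4-2 (adjusted p = 2.74e-11) on the log2 scale. Col9a1 rose by 2.68 ± 0.27 (adjusted p = 8.16e-08) and 2.85 ± 0.27 (adjusted p = 2.93e-08), or by 3.29 and 3.46 without control replicate 3, its highest control library.

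Col9a3 went the other way: it had 0.996, 0.795 and 0.781 FPKM with shAD4-1 and 0.471, 0.899 and 0.865 FPKM with shAD4-2, against 1.93, 1.61 and 1.75 FPKM in control. The log2 fold change was −0.98 ± 0.20 with shAD4-1 (adjusted p = 0.000319) and −1.20 ± 0.21 with shAD4-2 (adjusted p = 4.95e-05), without overlap with control. The ratio of Col9a2 to Col9a3 FPKM was 2.20 to 3.93 with shAD4-1, 3.92 to 7.20 with shAD4-2 and 0.223 to 0.340 in control. Of the 4 fibril-associated collagens with a mean of at least 1 FPKM, 2 rose with each hairpin, and 1 fell with shAD4-1 and 2 with shAD4-2. Col16a1 had 7.30 to 7.85, 7.02 to 7.64 and 4.52 to 5.13 FPKM in shAD4-1, shAD4-2 and control and rose by 0.69 ± 0.06 and 0.66 ± 0.06 on the log2 scale. Col20a1 had −0.17 ± 0.07 with shAD4-2 (adjusted p = 0.0323), a call lost without control replicate 2 or 3 and without shAD4-2 replicate 1 or 2 (adjusted p between 0.0614 and 0.151), with DESeq2 (0.0733), with no filter (0.0874) and with only the 2 groups compared (0.0627). It was not called with shAD4-1 (0.10 ± 0.07, adjusted p = 0.224).

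Of the elastic fibre and microfibril genes, 5 were tested, and with shAD4-1 3 rose and 2 fell, with shAD4-2 2 rose and 1 fell. Fbln1, the gene of a fibulin of elastic fibres and basement membranes, had 9.10, 9.20 and 9.10 FPKM with shAD4-1 and 9.71, 9.04 and 9.21 FPKM with shAD4-2, against 19.6, 24.2 and 24.0 FPKM in control. It changed by −1.25 ± 0.07 (adjusted p = 2.07e-11) and −1.22 ± 0.07 (adjusted p = 2.48e-11) on the log2 scale, with the hairpin libraries within 1 FPKM of each other and far below control. Fbln5, needed for elastic fibre assembly in mice, had 25.6, 25.7 and 24.7 FPKM with shAD4-1 and 29.0, 27.4 and 27.2 FPKM with shAD4-2, against 31.2, 28.3 and 27.5 FPKM in control. Its shAD4-2 libraries overlapped with control (0.00 ± 0.05, adjusted p = 0.980), and the small fall with shAD4-1 (−0.14 ± 0.05, adjusted p = 0.0124) was no longer called with control replicate 1 (adjusted p = 0.0665) or shAD4-1 replicate 3 left out.

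Emilin1, a glycoprotein at the surface of elastic fibres, had 21.9 to 22.4 FPKM with shAD4-1, 23.6 to 25.6 with shAD4-2 and 15.6 to 17.5 in control (log2 fold change 0.48 ± 0.05 and 0.62 ± 0.05). Mfap3 rose by 0.36 ± 0.06 and 0.46 ± 0.06 on the log2 scale. Against control, Efemp2, which brings lysyl oxidase to elastin, was called with shAD4-1 (0.17 ± 0.06, adjusted p = 0.0234) and not with shAD4-2 (−0.08 ± 0.07, adjusted p = 0.290). The shAD4-1 call did not hold if control replicate 1 (adjusted p = 0.0504), shAD4-1 replicate 1 or shAD4-1 replicate 2 was left out. It was also lost with limma on FPKM under each setting run (adjusted p between 0.112 and 0.191). The fibrillins Fbn1 and Fbn2, the backbone of microfibrils, had 8 and 1 reads over all 9 libraries.

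Adhesive and matricellular glycoproteins held the genes of highest level and the widest changes. Of the 7 with a mean of at least 1 FPKM, 4 rose with each hairpin, 2 fell with shAD4-1 and 3 fell with shAD4-2. Fn1, the gene of fibronectin, had 73.1, 71.6 and 69.0 FPKM with shAD4-1 and 55.6, 58.2 and 60.6 FPKM with shAD4-2, against 24.8, 30.3 and 31.5 FPKM in control. It rose by 1.36 ± 0.06 with shAD4-1 (adjusted p = 2.21e-12) and 1.06 ± 0.06 with shAD4-2 (adjusted p = 5.37e-11) on the log2 scale, and the 3 groups did not overlap. Without control replicate 1, its lowest library, the values were 1.26 and 0.97. With both hairpins it was the matrix gene of highest level after Sparc, while in control Agrn, Lamc1 and Fbln5 lay between Sparc and Fn1, with the libraries of Fbln5 and Fn1 overlapping.

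Sparc, whose product binds collagen and is abundant in melanoma, had 222, 225 and 221 FPKM with shAD4-1 and 243, 250 and 236 FPKM with shAD4-2, against 206, 204 and 210 FPKM in control. The differences are small but larger than the spread between libraries, at 0.17 ± 0.03 (adjusted p = 0.000303) and 0.29 ± 0.03 (adjusted p = 4.72e-07) on the log2 scale. Thbs3, a thrombospondin of skeletal tissue, had 19.5, 18.1 and 17.98 FPKM with shAD4-1 and 17.2, 19.1 and 18.1 FPKM with shAD4-2, against 9.81, 9.51 and 11.1 FPKM in control. It rose by 0.93 ± 0.06 and 0.89 ± 0.06 on the log2 scale. Thbs1, the thrombospondin known as an inhibitor of vessel growth, fell by 0.67 ± 0.14 and 0.62 ± 0.14, to 1.40 to 1.75 FPKM with shAD4-1 and 1.27 to 1.85 with shAD4-2, against 2.02 to 2.91 FPKM in control. Postn, the gene of periostin, fell by 0.68 ± 0.11 and 0.50 ± 0.11 on the log2 scale.

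Matn3, a cartilage matrilin, had 0.931, 0.889 and 0.837 FPKM with shAD4-1 and 1.71, 1.25 and 1.28 FPKM with shAD4-2, against 0.474, 0.451 and 0.520 FPKM in control. It rose by 0.93 ± 0.20 (adjusted p = 0.000470) and 1.61 ± 0.19 (adjusted p = 6.93e-07), and the 3 groups did not overlap. Matn2 fell with shAD4-2 (−0.50 ± 0.13, adjusted p = 0.00235) and was not called with shAD4-1 (−0.28 ± 0.13, adjusted p = 0.0605), but its adjusted p was 0.0274 without control replicate 1, 0.0193 without shAD4-1 replicate 3, 0.0448 with upper-quartile scaling and 0.0208 with limma on log2(FPKM + 1) and at least 1 FPKM in 3 libraries. Otog, known for otogelin of the inner ear, had 0.518 to 0.595, 0.273 to 0.390 and 0.0513 to 0.0677 FPKM in shAD4-1, shAD4-2 and control. Tnc, the gene of tenascin-C, and Thbs2 had 1 read each in all libraries.

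Sned1, the gene of a matrix glycoprotein with fibronectin-type and EGF-like repeats, had 7.20, 7.17 and 7.00 FPKM with shAD4-1 and 6.63, 6.70 and 7.04 FPKM with shAD4-2, against 1.05, 1.48 and 1.61 FPKM in control. The hairpin libraries of both lines lay close together and all above control. It rose by 2.42 ± 0.09 with shAD4-1 (adjusted p = 1.31e-13) and 2.35 ± 0.09 with shAD4-2 (adjusted p = 1.76e-13) on the log2 scale, or by 2.27 and 2.20 without control replicate 1, its lowest library. The strand used in counting is not given, and exons of Mterf4 on the other strand overlap 19.5% of the exon bases of Sned1 in GENCODE M21. Mterf4 had log2 fold changes of 0.24 ± 0.09 and 0.50 ± 0.09, and its part in the Sned1 counts was not tested. Likewise Mtx1 overlaps 6.59% of Thbs3 (log2 fold change of Mtx1 −0.46 ± 0.07 and −0.39 ± 0.07).

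**Figure D4:**
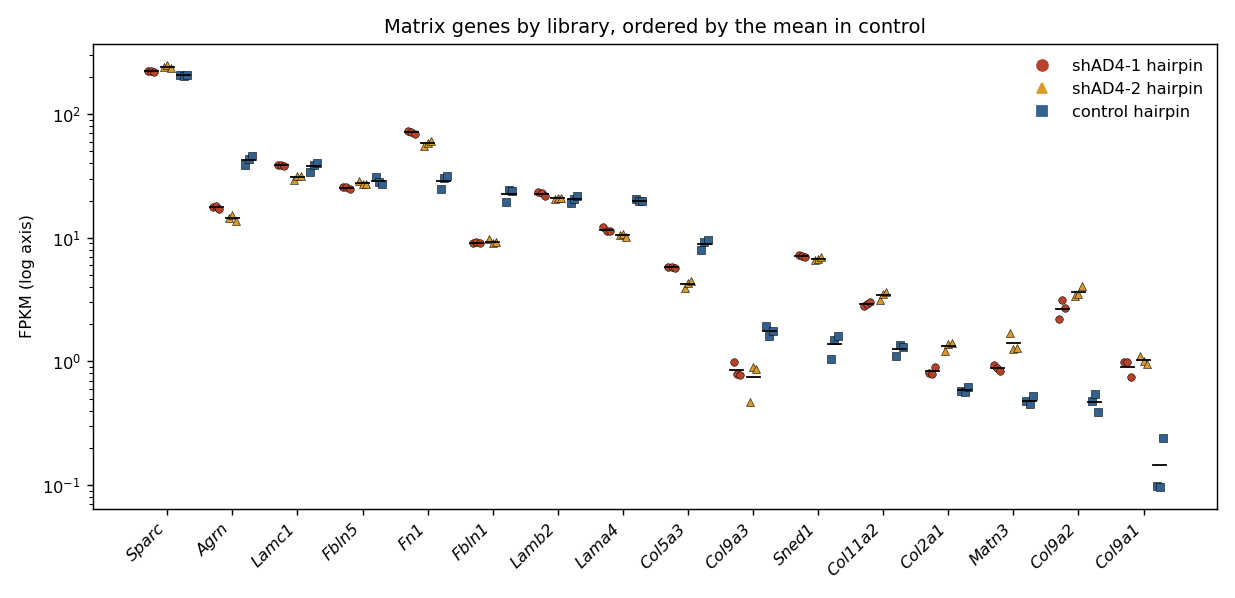
FPKM (y axis, log scale) of 16 matrix genes in each of the 9 libraries, with shAD4-1, shAD4-2 and control from left to right for each gene, ordered by the control mean. They are the 8 genes of highest control level and those changed at least 2-fold, and horizontal bars are means of 3 libraries. Sned1 lies at 6.63 to 7.20 FPKM in the 6 hairpin libraries and at 1.05 to 1.61 FPKM in control, and Agrn at 13.7 to 18.03 FPKM against 38.8 to 45.7 FPKM.

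Sned1 and Agrn had the smallest adjusted p among higher and among lower matrix genes in both comparisons with control, and their promoter windows are shown for this reason, at chr1:93235647-93235946 (plus strand) and chr4:156197439-156197738 (minus strand, 1 of 2 windows of Agrn) of GRCm38.p6. Capitals mark the letters GGGCGG, the core of the GC box bound by SP-family factors, on either strand, with overlapping matches counted separately.
Sned1: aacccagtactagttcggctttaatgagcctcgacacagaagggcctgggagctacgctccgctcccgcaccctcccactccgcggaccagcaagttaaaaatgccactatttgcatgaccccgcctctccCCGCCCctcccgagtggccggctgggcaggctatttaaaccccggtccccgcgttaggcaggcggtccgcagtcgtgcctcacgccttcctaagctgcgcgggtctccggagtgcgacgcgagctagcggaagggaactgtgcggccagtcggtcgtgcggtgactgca
Agrn: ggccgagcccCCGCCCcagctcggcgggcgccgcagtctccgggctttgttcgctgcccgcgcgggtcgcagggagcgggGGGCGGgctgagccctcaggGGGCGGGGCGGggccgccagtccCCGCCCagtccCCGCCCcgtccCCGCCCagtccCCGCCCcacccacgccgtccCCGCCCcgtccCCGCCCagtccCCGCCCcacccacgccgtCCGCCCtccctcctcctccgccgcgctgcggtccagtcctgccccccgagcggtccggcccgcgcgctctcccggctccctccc
The Sned1 window holds 1 match and has a GC content of 64.3%, and the Agrn window holds 12 matches and has 83.3%. RefSeq windows were found for 62 of the 86 matrix genes, 76 windows in all. GGGCGG was in 60.5% of them, against 35.7% of all 32851 windows in the table, which are not matched for expression level. Within the matrix genes it was in 71.9% of windows of genes with a mean of at least 1 FPKM and 52.3% of the others. TATAAA was in 10.5% against 13.6%, CCAAT in 34.2% against 37.4%, and GGAATG, the core of the TEAD motif, in 15.8% against 14.7%. These are matches of letters on both strands and do not mark binding sites.

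Of the lysyl oxidases, Loxl3 was the main one expressed, with 13.1, 13.6 and 13.3 FPKM with shAD4-1 and 13.3, 13.2 and 12.2 FPKM with shAD4-2, against 17.8, 18.1 and 19.5 FPKM in control. It fell by 0.41 ± 0.05 and 0.46 ± 0.05 on the log2 scale. Htra2, whose exons overlap 11.6% of its exon bases, changed by −0.35 ± 0.06 and −0.48 ± 0.06, and its part in the Loxl3 counts was not tested. Loxl4 fell by 0.33 ± 0.10 and 0.39 ± 0.10, while Loxl2 was called with neither hairpin (0.42 ± 0.22, adjusted p = 0.102, and −0.23 ± 0.23, adjusted p = 0.388), except for shAD4-1 without control replicate 2 (0.0272) or shAD4-1 replicate 2 (0.0434). Loxl1 had 49 reads with shAD4-1 (32, 11 and 6 by library), 30 with shAD4-2 (9, 7 and 14) and 1 in control. It could pass the filter only through the hairpin groups, so its direction is not read as a result. Lox itself had 2 reads in all. Vcan, the proteoglycan versican, stayed at or below 0.0474 FPKM in every library and was not called.

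The remaining genes were scarcely expressed. The 36 untested genes had 1 to 64 reads over the 9 libraries and a highest mean of 0.0777 FPKM, and 27 matrix genes had fewer than 20 reads in all. Col8a1, a network collagen of vessel walls and the eye, had 29 reads with shAD4-1, 30 with shAD4-2 and 0 in control. At equal depth the 95% lower limits of the ratio to control were 6.90 and 7.89, for counting error only. The gene was untested and was picked for its few control reads. Col17a1, a transmembrane collagen of the epidermal junction, stayed below 0.24 FPKM (log2 fold change 2.06 ± 0.46 and 1.67 ± 0.48). With 12, 14 and 2 reads in the control libraries, Col17a1 could pass the filter only through the hairpin groups. Its direction is therefore not read as a result. Col27a1, Col7a1 and Tnxb stayed below 0.41, 0.19 and 0.06 FPKM.

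Genes that fold, modify, secrete and process collagen, other matrix proteins and matrix receptors were taken from 4 lists of 88 genes in all, of which 82 were in the table and 62 were tested. With shAD4-1, 27 were higher and 22 lower, and with shAD4-2, 24 were higher and 23 lower, with median log2 fold changes of 0.09 and 0.01. These calls are 79% and 75.8% of the 62 genes, beside 65% and 69% of all tested genes, and the counts of each list below are to be read against the same background. Of 18 tested genes of collagen folding and modification, 5 were higher and 7 lower with shAD4-1, and 6 were higher and 8 lower with shAD4-2. Serpinh1, the collagen chaperone HSP47, had 461, 454 and 450 FPKM with shAD4-1 and 428, 446 and 440 FPKM with shAD4-2, against 297, 302 and 299 FPKM in control (log2 fold change 0.66 ± 0.03 and 0.61 ± 0.03). The prolyl 3-hydroxylase gene P3h2 rose by 0.81 ± 0.05 and 0.70 ± 0.05, and Crtap, a subunit of the prolyl 3-hydroxylation complex, by 0.68 ± 0.06 and 0.67 ± 0.06. Fkbp9, a peptidyl-prolyl isomerase of the endoplasmic reticulum, fell by 0.48 ± 0.04 and 0.50 ± 0.04 on the log2 scale.

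Of 14 tested genes of collagen secretion and processing, 8 were higher and 3 lower with shAD4-1, and 7 were higher and 3 lower with shAD4-2. Pcolce, which enhances removal of the procollagen C-propeptide, had 96.6, 92.7 and 94.5 FPKM with shAD4-1 and 98.2, 99.004 and 97.3 FPKM with shAD4-2, against 42.1, 47.5 and 47.1 FPKM in control (log2 fold change 1.11 ± 0.05 and 1.16 ± 0.05). Bmp1, the C-proteinase itself, rose by 0.52 ± 0.06 and 0.76 ± 0.06, Mia3, which loads procollagen into transport carriers, by 0.47 ± 0.04 and 0.52 ± 0.04, and Adamts14, an N-proteinase, by 0.64 ± 0.07 and 0.39 ± 0.08. Creb3l1, a transcription factor of collagen-secreting cells, fell by 0.98 ± 0.16 and 1.25 ± 0.17 on the log2 scale.

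Of 18 tested other matrix genes, 9 were higher and 7 lower with shAD4-1, and 7 were higher and 7 lower with shAD4-2. Tinagl1, the gene of a basement membrane glycoprotein, had 16.4, 16.4 and 15.8 FPKM with shAD4-1 and 20.6, 18.1 and 21.7 FPKM with shAD4-2, against 1.81, 1.61 and 1.61 FPKM in control. It rose by 3.33 ± 0.09 (adjusted p = 4.81e-16) and 3.65 ± 0.09 (adjusted p = 9.41e-17) on the log2 scale. Spp1, the gene of osteopontin, rose by 1.23 ± 0.13 and 2.22 ± 0.13, Ltbp4, a latent TGF-beta binding protein, by 1.10 ± 0.07 and 0.64 ± 0.07, and Bcan, the proteoglycan brevican, by 0.74 ± 0.07 with each hairpin. Sparcl1, a relative of Sparc, fell by 0.99 ± 0.06 and 0.80 ± 0.06, and Npnt, an integrin ligand of basement membranes, by 1.72 ± 0.15 and 0.93 ± 0.14.

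Of 12 tested matrix receptors other than integrins, 5 were higher and 5 lower with shAD4-1, and 4 were higher and 5 lower with shAD4-2. Ddr1, a collagen receptor kinase, had 14.2 to 15.03, 15.4 to 15.8 and 8.42 to 8.64 FPKM in shAD4-1, shAD4-2 and control and rose by 0.83 ± 0.04 and 0.92 ± 0.04 on the log2 scale. Dag1, the gene of dystroglycan, which binds agrin, perlecan and laminins, had 42.2 to 43.1, 44.5 to 46.9 and 59.2 to 63.9 FPKM and fell by 0.47 ± 0.04 and 0.36 ± 0.04. The thrombospondin receptor Cd47 fell by 0.98 ± 0.05 and 1.38 ± 0.05, and the syndecan gene Sdc2 by 0.68 ± 0.05 and 0.79 ± 0.05.

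Set directly against each other, the hairpin lines differed less. Of the 50 tested matrix genes, 11 were higher and 9 lower in shAD4-1 than in shAD4-2, none of them by 2-fold. Of all tested genes, 27.4% were called in this comparison (14% higher, 13.4% lower), and 1.69% were called with at least a 2-fold difference. Fn1 (log2 fold change 0.30 ± 0.06, adjusted p = 0.0019), Agrn (0.29 ± 0.05, adjusted p = 0.000602), Col5a3 (0.44 ± 0.07, adjusted p = 0.000162) and Lamc1 (0.32 ± 0.05, adjusted p = 0.000150) were higher with shAD4-1. Of the 5 laminins with a mean of at least 1 FPKM, 3 (Lamc1, Lama4 and Lama5) were higher with shAD4-1 and 0 lower. Col2a1 (−0.68 ± 0.13, adjusted p = 0.000584), Matn3 (−0.68 ± 0.18, adjusted p = 0.00925), Nid1 (−0.36 ± 0.10, adjusted p = 0.00994), Col4a1 (−0.29 ± 0.08, adjusted p = 0.00923) and Sparc (−0.12 ± 0.03, adjusted p = 0.0110) were lower. Sned1 (0.07 ± 0.08, adjusted p = 0.552), Fbln1 (−0.03 ± 0.07, adjusted p = 0.814), Hspg2 (−0.05 ± 0.08, adjusted p = 0.716) and Col4a2 (−0.10 ± 0.08, adjusted p = 0.397) were not called. The count of 9 lower genes became 5 without shAD4-1 replicate 1, shAD4-1 replicate 3, shAD4-2 replicate 1 or shAD4-2 replicate 2. Leaving out a library ended single calls: without shAD4-2 replicate 1 the adjusted p was 0.0778 for Matn3, 0.0714 for Nid1 and 0.0677 for Lama5, and without shAD4-2 replicate 2 it was 0.0675 for Sparc. Without shAD4-1 replicate 1 it was 0.1 for Lama4 and 0.0731 for Lama5, without shAD4-1 replicate 3 it was 0.0591 for Nid1, and without shAD4-2 replicate 3 it was 0.0675 for Lama4. Of the 62 pathway genes, 11 were higher and 8 lower, and the lower count became 5 without shAD4-1 replicate 2.

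**Figure D5:**
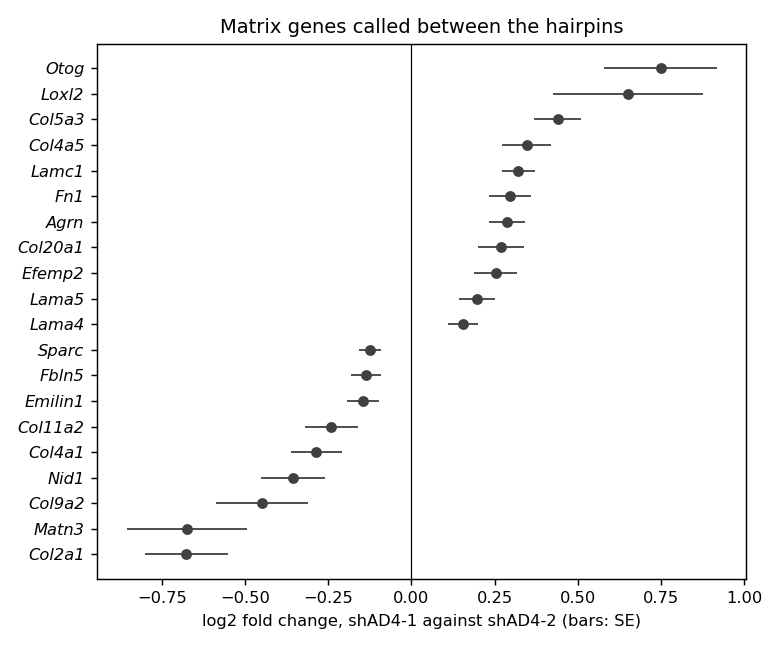
Log2 fold change of shAD4-1 against shAD4-2 (x axis, bars are SE) for the 20 matrix genes with an adjusted p below 0.05, ordered by size. The values run from 0.75 for Otog to −0.68 for Col2a1.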

How the data were processed

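Per gene and library, the authors deposited a read count, not normalized, and an FPKM value. The submitters' processing notes name fastp, HISAT2, HTSeq and GRCm39, without versions or a strand setting. Per the labels' protocols the library kit was VAHTS Universal V6. Columns are headed as control and as knockdown 1 and 2, per the file headers, and the knockdown number was taken as the hairpin number of the labels. The deposited FPKM follow from the counts, with an implied gene length within 0.001 of a whole number for 86 of 86 matrix genes.

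Counts were tested with edgeR 4.0.16 in R 4.3.3: filterByExpr, TMM factors, the group as the only term over 9 libraries, glmQLFTest, and Benjamini-Hochberg adjustment over 13807 genes at 0.05. The SE is the size of the log2 fold change over the root of F. Counting limits are exact at 95% and cover counting error only. On simulated counts for shAD4-1 against control, edgeR found 76% of the 1.25-fold and 98% of the 2-fold changes. There were 9 false calls among 13387 genes run. The shares were 68% and 98% for shAD4-2 against control, with 11 false calls among 13417 genes. Each fold was given to 50 genes above a minimum control level, and most genes were left unchanged. The shares therefore do not cover genes below that level, or data in which most genes change.

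Genes were named by a rule: those called, changed at least 2-fold without overlap and at 1 FPKM or more in the higher group, the 8 of highest control FPKM, and up to 4 genes per pathway list with the smallest adjusted p. Genes named outside this rule, for their family or level, were chosen with their values seen. The members and all lists were chosen with earlier results of these data known. Alternatives were other scalings and filters, DESeq2 1.42.0, limma 3.58.1 on log2 FPKM, the replicate block and each library left out. Promoter windows are RefSeq's for GRCm38.p6, and exon overlaps are from GENCODE M21. Some values are not reported here.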

Additional observations from a re-analysis of the deposited data

Results flagged for a closer look

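For 20 matrix genes the change against control differed between the hairpins, by the test of shAD4-1 against shAD4-2 over all genes (edgeR, adjusted p below 0.05). The values are log2 fold changes of shAD4-1 against shAD4-2. Among collagens the value was 0.44 for Col5a3, 0.35 for Col4a5 and 0.27 for Col20a1, and −0.24 for Col11a2, −0.29 for Col4a1, −0.45 for Col9a2 and −0.68 for Col2a1. Among basement membrane genes it was 0.32 for Lamc1, 0.29 for Agrn, 0.20 for Lama5 and 0.16 for Lama4, and −0.36 for Nid1. Among elastic fibre genes it was 0.25 for Efemp2, −0.14 for Fbln5 and −0.15 for Emilin1. Among adhesive proteins it was 0.75 for Otog and 0.30 for Fn1, and −0.12 for Sparc and −0.68 for Matn3. For the lysyl oxidase gene Loxl2 it was 0.65, a call lost without shAD4-1 replicate 1 or 3, without shAD4-2 replicate 2 or 3 and with the replicate block (adjusted p = 0.0594). The calls of Emilin1 and Fbln5 were each lost without any of shAD4-1 replicates 1 to 3 or shAD4-2 replicates 1 and 2. That of Col11a2 was lost without shAD4-1 replicate 1 or 2 or shAD4-2 replicate 2 or 3, and that of Col9a2 without shAD4-1 replicate 1 or 3 or shAD4-2 replicate 3. With limma on log2(FPKM + 1) or log2(FPKM + 0.1), these 4 calls and those of Fn1, Lama5, Nid1 and Loxl2 were lost too. For Lamc1, Col20a1, Efemp2, Nid1 and Loxl2 the fitted changes against control had opposite signs with the hairpins, and for Nid1 and Loxl2 neither passed the threshold.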

How the results depend on the processing

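Over the single genes, 3920 values under an alternative stayed on the same side of the threshold, 34 came to pass it and 115 no longer passed it. The sign differed from the reported value in 47, of 18 results, and 0 of these passed the threshold in either fit. Of 82 calls of matrix genes against control, 70 held under all alternatives run, and of 20 calls between the hairpins 9 did. With each library left out in turn, higher and lower matrix genes numbered 26 to 31 and 12 to 14 for shAD4-1 against control (27 and 14 with all libraries), 24 to 27 and 15 to 17 for shAD4-2 against control (25 and 16), and 8 to 13 and 5 to 10 for shAD4-1 against shAD4-2 (11 and 9). For pathway genes the ranges were 24 to 30 and 19 to 21 (27 and 22), 23 to 25 and 20 to 25 (24 and 23), and 10 to 15 and 5 to 11 (11 and 8). With limma on log2(FPKM + 1) and at least 1 FPKM in 3 libraries, 15 and 14 matrix genes were higher with shAD4-1 and shAD4-2, as fewer genes were tested. With limma on log2(FPKM + 1) or log2(FPKM + 0.1), 4 were lower in shAD4-1 than in shAD4-2, and the cause was not tested. The replicate numbers did not pair the libraries: the deviations of same-numbered libraries correlated at −0.124 to 0.00225 over 9 pairs, and 0 libraries correlated best with their own number. With the replicate block, matrix genes numbered 27 higher and 13 lower for shAD4-1, 24 and 16 for shAD4-2, and 10 and 9 between the hairpins. Leaving out the mitochondrially encoded genes, an alternative chosen after seeing the data, gave 27 and 14, 25 and 16, and 11 and 9. Depth limits what can be said of the 36 untested genes, with at most 64 reads each.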
